A study of Mus musculus with 6 samples.

Results

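The 7 mature miRNA arms described here, miR-340-5p, miR-340-3p, miR-298-5p, miR-224-5p, miR-708-5p, miR-708-3p and miR-138-5p, were picked out by name from 1251 arms in the deposited table. They had been grouped because earlier results of these same data placed most of them in subcutaneous rather than brown fat. Their difference between the depots is therefore a description, and no test is given for it. Of the 7, 4 were restricted to subcutaneous fat in all libraries: miR-340-5p, miR-298-5p, miR-224-5p and miR-138-5p stood at the lowest value of the table in all brown libraries and above it in all subcutaneous ones. The term cannot be used of miR-708-3p, which was listed in every brown library.

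The 6 libraries hold small RNA from brown adipose tissue (BF-EPA 3, 4 and 5, taken between the shoulder blades) and from subcutaneous adipose tissue (SUB-EPA 1, 3 and 8, taken from the groin) of C57BL/6J mice. All mice of both groups ate a fat-rich diet (45% of energy from fat, 20% from protein, 35% from carbohydrate) with 6.75% eicosapentaenoic acid (EPA), an omega-3 fatty acid, for 11 weeks from an age of 5 to 6 weeks, and fasted for 4 hours at the end. The groups thus differ in tissue and share diet, fast and strain, and mice without EPA are not analysed here. No genetic change is named in the labels, which give neither the sex of the mice nor whether 1 mouse gave both tissues.

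A miRNA is cut from a hairpin RNA, and either side of the hairpin (the 5p and the 3p arm) can be loaded onto an Argonaute protein. The loaded arm represses messenger RNAs that pair with its seed, bases 2 to 8 counted from its 5′ end. Arms with one seed can therefore recognise overlapping sets of messenger RNAs. Many hairpins lie in introns of protein-coding genes and are made from the same transcript as the host. Brown fat burns fuel for heat, while the inguinal depot is a white, fat-storing depot.

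All 7 arms were matched to RefSeq mature sequences (GRCm38.p6, the assembly also called mm10). They are shown with the seed in capitals, because the seed sets which arms can act alike.
miR-340-5p: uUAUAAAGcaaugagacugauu
miR-340-3p: uCCGUCUCaguuacuuuauagc
miR-298-5p: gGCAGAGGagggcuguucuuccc
miR-224-5p: uAAGUCACuagugguuccguu
miR-708-5p: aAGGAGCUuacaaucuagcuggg
miR-708-3p: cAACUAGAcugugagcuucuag
miR-138-5p: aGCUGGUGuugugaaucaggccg
miR-28a-5p: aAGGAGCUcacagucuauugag
The 7 arms have 7 distinct seeds, so no pair of them shares one. Only miR-708-5p has a relative with the same seed among the 1001 table rows that could be matched to a sequence, and this is miR-28a-5p. From the 5′ end, 16 of the first 22 bases of the miR-708-5p and miR-28a-5p arms are identical. GC content of the 7 ran between 27.3% for miR-340-5p and 65.2% for miR-298-5p. The 229 tested arms with a sequence had a median of 50.0%, with quartiles at 45.5% and 59.1%, so the 7 arms lie on both sides of the median.

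The 7 arms come from 6 hairpins on 6 chromosomes. Mir340 (GRCm38 chr11:50069702-50069799, plus strand) lies in an intron of Rnf130, which encodes a ubiquitin ligase. Mir708 (chr7:96249424-96249532, plus strand) lies in an intron of Tenm4, which encodes a teneurin, a large cell-surface protein. Mir224 (chrX:72261031-72261112, minus strand) lies in an intron of Gabre, which encodes a subunit of the GABA-A receptor. In these 3 cases hairpin and host have the same strand.

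Mir298 (chr2:174267504-174267585, minus strand) overlaps no GENCODE M21 gene other than small RNAs. Its nearest such gene is Nespas, an antisense transcript of the imprinted Gnas region, 13652 bp away on the same strand. Mature miR-138-5p is encoded at 2 sites, Mir138-1 (chr9:122682876-122682974) and Mir138-2 (chr8:94324311-94324381), both on the plus strand. Mir138-1 overlaps an exon of Gm47135, annotated as a transcribed pseudogene, and Mir138-2 an exon of the long noncoding RNA C78859. Host messenger RNAs were not measured in these libraries.

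The Mir340 hairpin is shown because both of its arms are described, and the Mir138 hairpins because the capitals, which mark the described arms, are the same letters at both sites.
Mir340: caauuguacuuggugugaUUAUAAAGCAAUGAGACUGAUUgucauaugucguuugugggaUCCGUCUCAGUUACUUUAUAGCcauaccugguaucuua
Mir138-1: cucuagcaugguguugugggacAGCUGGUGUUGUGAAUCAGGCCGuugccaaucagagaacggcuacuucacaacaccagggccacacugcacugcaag
Mir138-2: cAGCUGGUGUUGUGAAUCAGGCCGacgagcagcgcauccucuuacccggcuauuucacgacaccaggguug
A read of miR-138-5p cannot be assigned to one of these sites. The 3p arms differ between them, and both miR-138-1-3p and miR-138-2-3p were listed at the floor in all 6 libraries.

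Levels are the deposited log2 abundances. They end at a floor of 3.32 (10 on the linear scale), where an arm was listed without a measurable level. The lowest value above the floor was 4.98 in BF-EPA 3, 5.00 in BF-EPA 4 and 4.63 in BF-EPA 5, against 5.53 in SUB-EPA 1, 4.26 in SUB-EPA 3 and 4.95 in SUB-EPA 8. An arm between the floor and these values would not be seen. Above the floor were 243, 243 and 258 arms in brown and 235, 273 and 252 in subcutaneous libraries. SUB-EPA 1 stands apart: 25 arms were at the floor there while listed in both other subcutaneous libraries, against 3 such arms for SUB-EPA 3 and 10 for SUB-EPA 8. Among the brown libraries this count was 7 for BF-EPA 3, 15 for BF-EPA 4 and 4 for BF-EPA 5. No fold is given against a tissue at the floor. In bulk tissue, fewer cells that make a miRNA and less of it per cell cannot be told apart.

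The 5p arm of miR-340, known as a growth-restraining miRNA that represses MITF in human melanoma cells, was at the floor in all 3 brown libraries. Its level was 9.39 in SUB-EPA 1, 8.43 in SUB-EPA 3 and 9.80 in SUB-EPA 8, a mean of 9.21 ± 0.70 (SD, n = 3). It ranked 105, 132 and 95 among all arms of these libraries. Every subcutaneous value lay at least 3.44 log2 units above the highest of the lowest listed brown values, so the groups were far apart. The 3p arm was at the floor in all brown libraries and in SUB-EPA 1, and stood at 6.08 in SUB-EPA 3 and 5.74 in SUB-EPA 8. These values are 1.08 and 0.74 above that brown limit, and close to the 5.53 at which listing began in SUB-EPA 1. The lowest listed value was 4.26 in SUB-EPA 3 and 4.95 in SUB-EPA 8, so the 3p arm was not at the bottom of those libraries. The groups touch at the floor.

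MiR-298-5p, known to repress the beta-secretase gene Bace1 in mouse cells, was at the floor in all brown libraries. It stood at 8.34 in SUB-EPA 1, 8.86 in SUB-EPA 3 and 7.53 in SUB-EPA 8, with a mean of 8.24 ± 0.67 (SD, n = 3). SUB-EPA 8 was lowest, and it was still 2.53 above the brown limit. The other arm, miR-298-3p, was at the floor in all 6 libraries.

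MiR-224-5p, which has been studied as a regulator of fat cell formation in mouse 3T3-L1 cells, was likewise at the floor throughout brown fat. Its level was 8.44 in SUB-EPA 1, 7.17 in SUB-EPA 3 and 7.92 in SUB-EPA 8, a mean of 7.85 ± 0.64 (SD, n = 3). It was the only one of the 7 arms that was highest in SUB-EPA 1. Its lowest value, in SUB-EPA 3, lay 2.18 above the brown limit. MiR-224-3p was at the floor in all 6 libraries.

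MiR-138-5p, abundant in brain, where in rat neurons it limits the size of dendritic spines, and reported to restrain fat cell formation from human stromal cells, was at the floor in all brown libraries. It stood at 7.32 in SUB-EPA 1, 8.23 in SUB-EPA 3 and 7.41 in SUB-EPA 8, with a mean of 7.66 ± 0.50 (SD, n = 3). SUB-EPA 3 was highest, as it was for miR-298-5p and both arms of miR-708.

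MiR-708-5p had the highest mean of the 7 in subcutaneous fat and was listed in 2 of 3 brown libraries. It stood at 5.49 in BF-EPA 3, at the floor in BF-EPA 4 and at 4.91 in BF-EPA 5, against 9.27 in SUB-EPA 1, 9.95 in SUB-EPA 3 and 9.85 in SUB-EPA 8. The groups did not overlap, and the means were 4.57 ± 1.12 in brown and 9.69 ± 0.37 in subcutaneous fat (SD, n = 3 each). The difference of means, brown minus subcutaneous, was -5.12, and -4.49 without BF-EPA 4. This miRNA is known to be induced with its host gene during stress of the endoplasmic reticulum in mammalian cells.

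The levels of miR-708-3p, the other arm of that hairpin, did not follow those of miR-708-5p. MiR-708-3p stood at 5.77 in BF-EPA 3, 6.01 in BF-EPA 4 and 5.60 in BF-EPA 5, against the floor in SUB-EPA 1, 7.54 in SUB-EPA 3 and 6.98 in SUB-EPA 8. The means were 5.79 ± 0.20 in brown and 5.95 ± 2.29 in subcutaneous fat (SD, n = 3 each), and the groups overlapped through SUB-EPA 1. The difference, brown minus subcutaneous, was -0.15, but -1.47 without SUB-EPA 1, 0.64 without SUB-EPA 3, 0.36 without SUB-EPA 8 and 0.16 with median-of-ratios scaling, so its sign is not settled by these libraries.

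**Figure D1:**
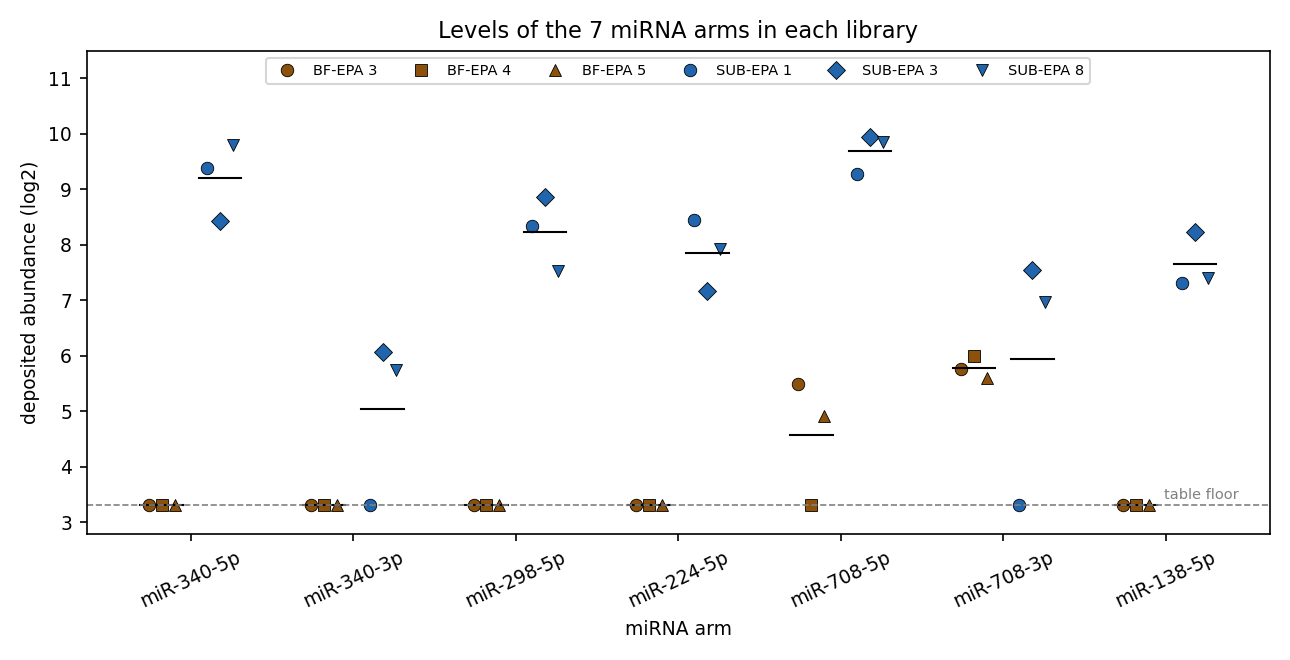
Deposited log2 abundance of the 7 arms in each library, with brown libraries (BF-EPA, brown symbols) left of subcutaneous ones (SUB-EPA, blue symbols), the group mean as a black line and the table floor of 3.32 dashed. The brown symbols of 5 arms all lie on the floor, miR-708-3p lies between 5.60 and 6.01 in brown fat, and SUB-EPA 1 lies on the floor for miR-340-3p and miR-708-3p.

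For 5 of the 7 arms all brown values lay below all subcutaneous values. Over the 269 arms that passed the filter on low values, 40.1% showed this and 33.8% the reverse. Of the 7 arms 6 passed the filter, and miR-340-3p did not. The arms that are at the floor in brown fat passed through their subcutaneous values alone and had to differ, so nothing is read from that count. Without SUB-EPA 1 all 7 arms were separated in this direction, because that library is the one at the floor for both 3p arms.

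In subcutaneous fat the order of the mean levels was miR-708-5p, miR-340-5p, miR-298-5p, miR-224-5p, miR-138-5p, miR-708-3p and miR-340-3p. The mature arms are 21 to 23 bases long, so levels were compared without a correction for length. Neighbours in this order overlapped in their ranges over the 3 libraries in every case. In brown fat miR-708-3p came first and miR-708-5p second, and the other 5 were at the floor. The 5 arms listed in all subcutaneous libraries ranked between 92 and 176 there, and their median level of 8.24 was close to the 8.26 that was the median of the subcutaneous means of all tested arms. They were thus mid-abundance arms of the subcutaneous libraries.

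Within subcutaneous fat the libraries did not order the arms alike. SUB-EPA 3 held the highest value of 5 arms and the lowest of miR-340-5p and miR-224-5p. SUB-EPA 1 held the lowest value of 4 arms. The spread over the 3 libraries was 1.60-fold for miR-708-5p, 1.89-fold for miR-138-5p, 2.41-fold for miR-224-5p, 2.52-fold for miR-298-5p and 2.59-fold for miR-340-5p.

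The balance between the arms could be followed for the hairpins with both arms described. For miR-340, the level of the 5p arm exceeded that of the 3p arm by 6.07 log2 units in SUB-EPA 1, 2.36 in SUB-EPA 3 and 4.07 in SUB-EPA 8. The mean was 4.16 ± 1.86 (SD, n = 3), and the value of SUB-EPA 1 has the 3p arm at the floor. In brown fat neither arm was listed, so no balance can be given.

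For miR-708 the stronger arm changed with the tissue. The 5p minus 3p difference was -0.28 in BF-EPA 3, -2.68 in BF-EPA 4 and -0.69 in BF-EPA 5, against 5.95 in SUB-EPA 1, 2.41 in SUB-EPA 3 and 2.87 in SUB-EPA 8. The means were -1.22 ± 1.28 in brown and 3.75 ± 1.93 in subcutaneous fat (SD, n = 3 each). The 3p arm was thus the higher one in each brown library and the 5p arm in each subcutaneous one. In BF-EPA 4 the 5p arm and in SUB-EPA 1 the 3p arm were at the floor. In the 4 libraries with both arms listed the signs were the same as in the whole groups, though in BF-EPA 3 and BF-EPA 5 both arms lay within about 1 log2 unit of the lowest listed values. Such a change of the stronger arm in every library was found for 5 of 78 hairpins with both arms above the floor somewhere (6.41%).

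**Figure D2:**
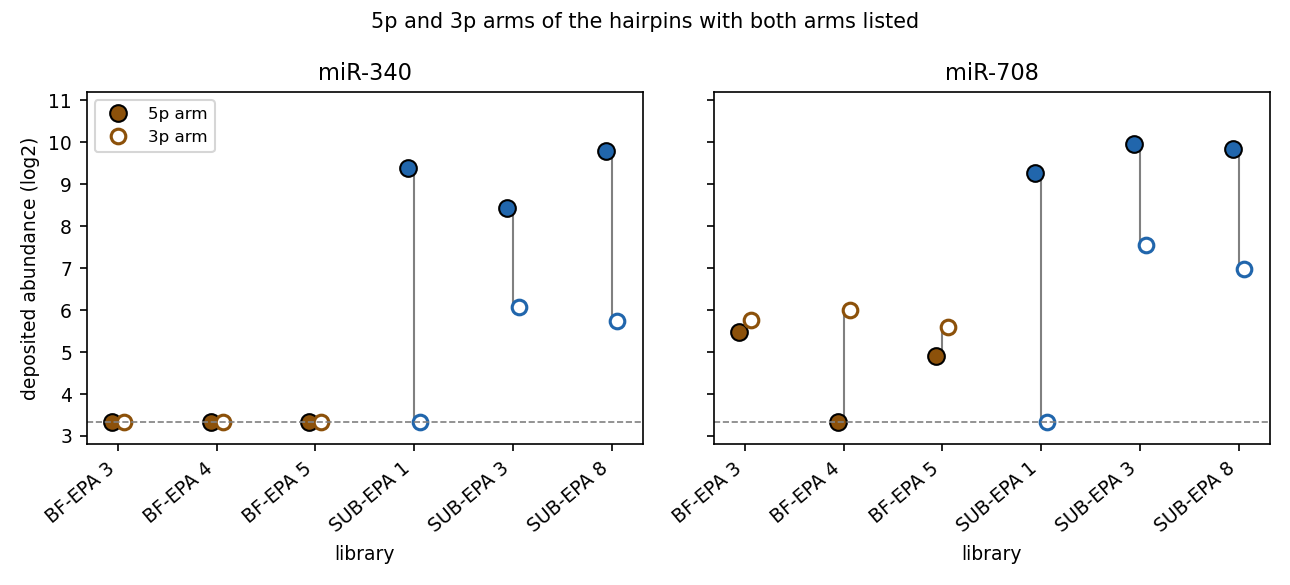
Deposited log2 abundance of the 5p arm (filled circles) and the 3p arm (open circles) of miR-340 and miR-708 in each library, brown libraries left in brown and subcutaneous libraries right in blue, with the table floor dashed. For miR-708 the open circle is on top in the 3 brown libraries and the filled circle in the 3 subcutaneous ones, where the 5p arm reaches 9.27 to 9.95.

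MiR-28a-5p, the seed relative of miR-708-5p, comes from an intron of Lpp (hairpin at chr16:24827855-24827940, plus strand) and was listed in all 6 libraries. Its level was 7.99 in BF-EPA 3, 7.97 in BF-EPA 4 and 8.02 in BF-EPA 5, against 8.94 in SUB-EPA 1, 9.15 in SUB-EPA 3 and 8.86 in SUB-EPA 8. All brown values were below all subcutaneous ones, and the log2 difference was -0.99 ± 0.20 SE, that is 1.99-fold higher in subcutaneous fat (limma adjusted p = 0.0049, n = 3 per tissue). With median-of-ratios scaling the difference was -0.58 (limma adjusted p = 0.041; 0.0033 to 0.041 over all alternatives). The row of miR-28c holds identical values in all 6 libraries, so its reads and those of miR-28a-5p cannot be told apart.

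Summed on the linear scale after subtracting the floor, the pair miR-708-5p and miR-28a-5p reached 279, 242 and 269 units in BF-EPA 3, 4 and 5, against 1091, 1538 and 1367 units in SUB-EPA 1, 3 and 8. The part of this sum from miR-708-5p was 12.5%, 0% (at the floor) and 7.45% in the brown libraries, against 55.9%, 63.8% and 66.7% in the subcutaneous ones. Of this pair, miR-28a-5p was the larger part in each brown library and miR-708-5p in each subcutaneous one. The sum covers these 2 rows only, since 1001 of 1251 rows had a sequence to search and miR-28c was not counted. Since miR-708-5p was chosen for its difference, these shares are given without a test.

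**Figure D3:**
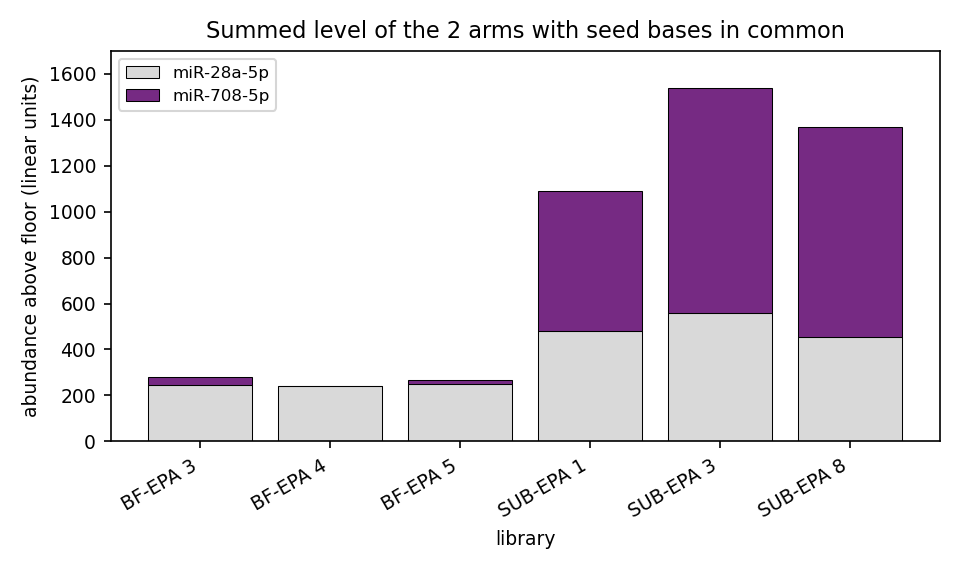
Linear abundance above the floor of miR-28a-5p (grey) and miR-708-5p (purple), stacked for each library, brown libraries left. The sum is 242 to 279 units in brown and 1091 to 1538 units in subcutaneous libraries, with miR-708-5p giving 55.9% to 66.7% of it in subcutaneous libraries.

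Of 4 neighbouring arms in the genome, 3 were at the floor in all 6 libraries. Mir452 lies 1112 bp from Mir224, also in an intron of Gabre, and both miR-452-5p and miR-452-3p were at the floor. Mir296 lies 379 bp from Mir298 on the same strand. MiR-296-5p was at 4.91 in BF-EPA 5 and at the floor in BF-EPA 3 and BF-EPA 4, against 6.28 in SUB-EPA 3, 5.74 in SUB-EPA 8 and the floor in SUB-EPA 1. It was below miR-298-5p in SUB-EPA 3 and SUB-EPA 8. In BF-EPA 5 it was listed while miR-298-5p was at the floor. MiR-296-3p was at the floor in all 6 libraries. None of the other arms of the described hairpins or of these neighbours passed the filter for testing (0 of 8).

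The 4 restricted arms were among 18 in the table that were at the floor in all brown libraries and above it in all subcutaneous ones. The reverse pattern held for 17 arms. Of the 269 tested arms, 16 (5.95%) had the subcutaneous pattern. By mean subcutaneous level, miR-340-5p was the 4th of the 18, miR-298-5p the 6th, miR-224-5p the 8th and miR-138-5p the 9th. Above miR-340-5p stood miR-196a-5p (10.81 ± 0.11, SD, n = 3), which is encoded in Hox clusters, miR-335-3p (10.78 ± 0.40) and the epithelial miRNA miR-205-5p. The last had values of 15.02 in SUB-EPA 1, 7.35 in SUB-EPA 3 and 5.74 in SUB-EPA 8, a 623-fold spread.

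**Figure D4:**
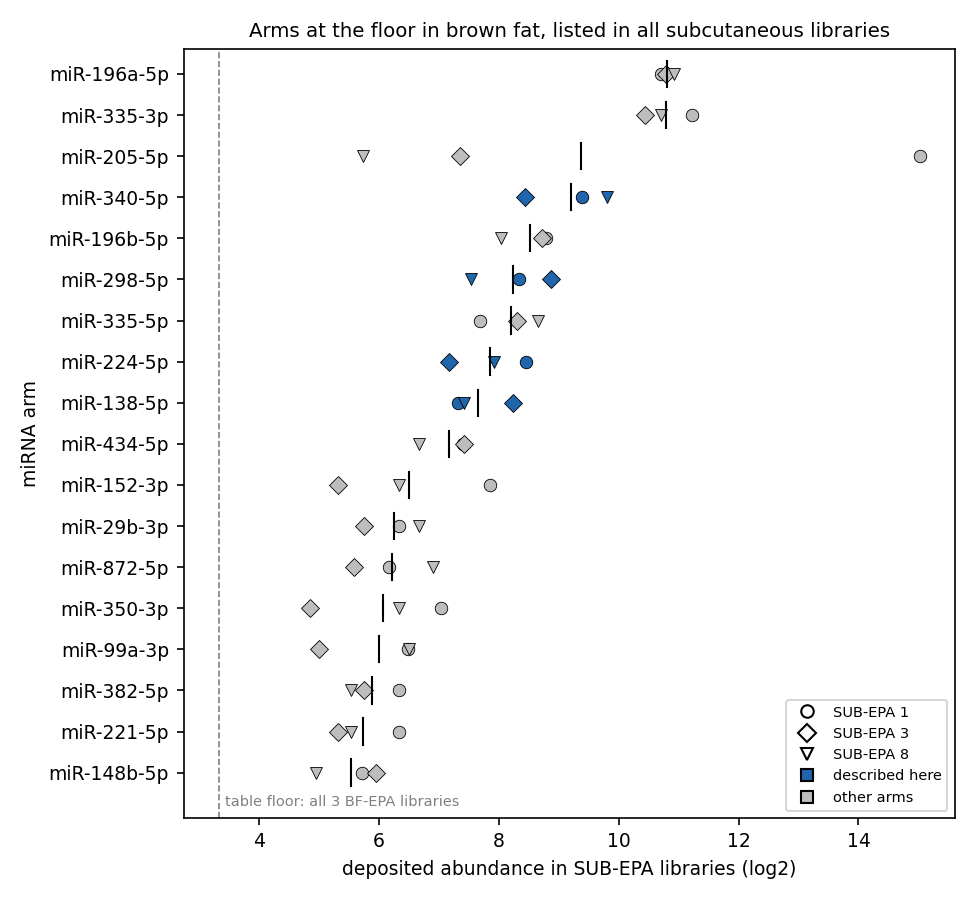
Deposited log2 abundance in the 3 subcutaneous libraries (symbols) and their mean (black bar) for the 18 arms at the floor in all brown libraries and above it in all subcutaneous ones, ordered by mean. Blue marks miR-340-5p, miR-298-5p, miR-224-5p and miR-138-5p, which lie between 7.17 and 9.80, and grey marks the other 14 arms.

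The arms most like the median profile of the 7 were sought by Euclidean distance between log2 values over the 6 libraries. The nearest was miR-196b-5p at a distance of 0.84, with subcutaneous levels of 8.79, 8.73 and 8.04 in SUB-EPA 1, 3 and 8. Next came miR-335-5p at 1.30, miR-434-5p at 1.52, miR-199b-5p at 2.20 and miR-34c-5p at 2.39. The first 3 of these 5 were at the floor in all brown libraries, and the other 2 were listed in BF-EPA 5 alone among them. For single arms, the nearest was miR-196b-5p to miR-298-5p (0.70), miR-434-5p to miR-138-5p (1.11), miR-335-5p to miR-224-5p (1.54) and miR-223-3p to both miR-340-5p (1.73) and miR-708-5p (2.55). MiR-1839-3p was nearest to miR-340-3p (0.50) and miR-674-5p to miR-708-3p (2.33). Among the 7 themselves the closest pair was miR-298-5p and miR-138-5p (1.20) and the most distant miR-340-3p and miR-708-5p (8.64).

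Against this stands a table in which most arms differed between the depots: of 269 tested arms, 69.1% were called at a limma adjusted p under 0.05, with 33.5% higher and 35.7% lower in brown fat. The marker lists were chosen with earlier results of these data known, so their direction is no independent check of the tissue labels. All 5 tested arms of the 6 listed as brown fat miRNAs were higher in brown fat, such as miR-378a-5p at 13.99 ± 0.21 in brown and 9.89 ± 0.31 in subcutaneous fat (SD, n = 3 each, limma adjusted p = 2.5e-05), while miR-455-5p was at the floor in all 6 libraries. Of 5 Hox cluster arms 4 were lower in brown fat and 0 higher.

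Of 8 miRNAs listed as restraining fat cell formation, 4 were tested, and 3 of these were lower and 0 higher in brown fat. MiR-130a-3p, a repressor of the adipogenic regulator PPARG in human cells, averaged 8.72 ± 0.20 in brown and 11.72 ± 0.21 in subcutaneous fat (SD, n = 3 each, limma adjusted p = 4.9e-05). Of 10 miRNAs listed as promoting it, 9 were tested, with 2 higher and 4 lower in brown fat. The count of 2 was 1 without BF-EPA 3, BF-EPA 4, BF-EPA 5 or SUB-EPA 8 and with no mean-variance trend. The median difference over the tested arms, brown minus subcutaneous, was -1.32 for the restraining and -1.38 for the promoting list, beside -0.45 for all tested arms.

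Markers of other cells moved in part with the same contrast. The stromal list shares an arm with the restraining list and another with the promoting list, so their counts are not separate observations. Of 6 tested stromal arms 5 were lower in brown fat and 0 higher, and the summed level of that list ran from 14.64 to 14.91 in brown and from 16.47 to 16.80 in subcutaneous libraries (log2). Of 6 leukocyte arms 4 were in the table and 3 were tested, with 1 higher and 2 lower in brown fat, and miR-155-5p at the floor in all 6. Their sum ran from 15.02 to 15.47 in brown and from 13.83 to 14.28 in subcutaneous libraries. That sum was set almost wholly by the 1 arm that was higher in brown fat, and it ran against the 2 lower arms. These were miR-223-3p, at 3.85 ± 0.92 in brown and 9.36 ± 0.53 in subcutaneous fat, and miR-146a-5p, at 4.98 ± 1.48 and 8.09 ± 1.29 (SD, n = 3 each). The count of 2 was 1 without BF-EPA 3, BF-EPA 4, SUB-EPA 1 or SUB-EPA 8 and with a filter 10 times as strict. Both tested endothelial arms were lower in brown fat (1 with median-of-ratios scaling), with sums from 11.66 to 11.90 in brown and from 13.27 to 13.62 in subcutaneous libraries.

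The epithelial sum was 8.11 to 8.63 in brown fat, against 15.27 in SUB-EPA 1, 8.27 in SUB-EPA 3 and 8.72 in SUB-EPA 8, and limma called 0 of 5 tested arms. At an unadjusted p under 0.05 there was 1, miR-205-5p (called as lower in brown fat without SUB-EPA 1, without SUB-EPA 8 or with a filter 10 times as strict; limma adjusted p of 0.054 for miR-205-5p with all libraries). SUB-EPA 1 is also the library at the floor for miR-340-3p and miR-708-3p and the highest for miR-224-5p. MiR-205-5p was at the floor in all brown libraries and above it in all subcutaneous ones. The muscle sum was highest in BF-EPA 4 (17.21) and SUB-EPA 3 (16.91). It was 10.32 in BF-EPA 3, 12.50 in BF-EPA 5, 10.74 in SUB-EPA 1 and 13.33 in SUB-EPA 8. Of the muscle arms, 0 of 3 tested were called by limma, with 0 at an unadjusted p under 0.05. Of the neural list, which bears on miR-138-5p, miR-124-3p, miR-9-5p, miR-9-3p and miR-137-3p were at the floor in all 6 libraries. MiR-128-3p of that list was listed in all 6, at 8.07 ± 1.02 in brown and 8.10 ± 0.57 in subcutaneous fat (SD, n = 3 each). The neural sum ran from 7.40 to 9.23 in brown and from 7.75 to 8.75 in subcutaneous libraries. Limma called 0 of 1 tested arms, with 0 at an unadjusted p under 0.05. The part of stromal, leukocyte, endothelial, epithelial, muscle or neural cells in the levels of the 7 arms was not tested.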

How the data were processed

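Small RNA was sequenced from 3 BF-EPA and 3 SUB-EPA libraries, grouped by sample title. The deposited table holds log2 values made by the authors: according to the design text of the series, they mapped reads to mm10, scaled counts to total usable reads and added 40. Aligner and miRNA annotation: not given in the sources used here. Values show a floor of 3.32, no offset of 40 and one shared maximum of 18.67 in every library. When each library is sorted, 64 of the 100 highest ranks have an identical value in all 6 and no rank differs by more than 0.14 (log2), as quantile normalization would leave them; no source used here names that step. Levels and linear sums therefore follow an arm's rank in a near-common distribution. Read depth is unknown, so no counting interval is given.

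Brown minus subcutaneous differences were fitted with limma 3.58.1 (R 4.3.3) with a mean-variance trend on the values as deposited. Arms were tested if their mean, with the floor subtracted, was at least 24.2 linear units (1e-05 of the mean library total), and p-values were Benjamini-Hochberg adjusted over all 269. The fit was also run on simulated data with normal noise and no floor, so that run says nothing about arms at the floor. Alternatives were 40 added to the linear values, no filter, a filter 10 times as strict, median-of-ratios scaling, no trend, and leaving out each library. Nothing says that the samples of a group came from separate mice, so p-values cover only the spread among the samples, which may be technical. Where a tissue is at the floor it adds no spread, and p can be too small.

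Arms named were the 7 described, other arms of their hairpins, seed relatives, neighbours within 10 kb, the nearest profiles, and at most 2 tested arms of each list; miR-196a-5p and miR-335-3p were also named as the first of the 18. Members and lists were chosen with earlier results of these data known. Sequences came from RefSeq, host genes from GENCODE M21; Python 3.11.15, pandas 2.3.3, numpy 2.4.6 and matplotlib 3.10.9 were used.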

Additional observations from a re-analysis of the deposited data

Results flagged for a closer look

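The 5p minus 3p difference of miR-708 had opposite signs in the tissues, with a mean of -1.22 in brown fat and 3.75 in subcutaneous fat (log2, n = 3 each). All 3 brown libraries were below 0 and all 3 subcutaneous libraries above it. Both means include a library with an arm at the floor, the 5p arm in BF-EPA 4 and the 3p arm in SUB-EPA 1. With both arms listed, the difference was -0.28 in BF-EPA 3 and -0.69 in BF-EPA 5, near the lowest listed values. It was 2.41 in SUB-EPA 3 and 2.87 in SUB-EPA 8. The difference between the tissues was not tested, since miR-708-5p was chosen for its level in them.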

How the results depend on the processing

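The number of arms called between the tissues was 186 and lay between 126 and 189 over all alternatives; without 1 library it lay between 165 and 188. Arms higher in brown fat numbered 90, and 58 with the filter 10 times as strict, where 156 arms were tested. Arms lower in brown fat numbered 96, and 68 to 98 over the alternatives. Median-of-ratios scaling shifted the median difference of all tested arms by 0.37, to -0.09, and gave 101 higher and 82 lower; leaving out BF-EPA 3 shifted it by 0.21. Over all lists 27 arms were called, and 25 to 30 under the alternatives. The 5 separated arms of the 7 were 5 with 40 added and with median-of-ratios scaling, and 5 to 7 without 1 library, the 7 being without SUB-EPA 1. Adding a constant keeps the order of values, and leaving out a library cannot end a separation, so those counts could not fall. The scaling leaves an arm at the floor where it is, so the 4 restricted arms had to stay separated. Nothing is read from these counts. With 40 added to the linear values the brown minus subcutaneous difference was -3.67 for miR-340-5p, -3.70 for miR-708-5p, -2.79 for miR-298-5p, -2.45 for miR-224-5p and -2.28 for miR-138-5p, smaller than as deposited because levels near the floor are compressed. The 5p minus 3p mean in subcutaneous fat was 3.00 for miR-340 and 2.81 for miR-708 with 40 added, and 3.21 to 5.07 and 2.64 to 4.41 without 1 subcutaneous library. The 18 arms with the subcutaneous pattern numbered 18 with a floor 1 log2 unit higher and 18 to 26 without 1 library. Only SUB-EPA 3 listed values below the raised floor (3 arms at 4.26), and leaving out a library cannot lower the count. These counts had little or no room to fall, so nothing is read from them. No paired analysis was possible because the groups share 1 replicate number. Read depth is unknown, so an arm at the floor may lie anywhere below the lowest value its library lists.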
